A study of Homo sapiens with 8 samples.

Results

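The genes CD274 and PDCD1LG2 encode the 2 known ligands of the inhibitory T-cell receptor PD-1, PD-L1 and PD-L2. Both were taken from the deposited array values by gene symbol, as transcript clusters (array features that sum up the probes of 1 locus) annotated with that symbol alone. Each gene had 1 such cluster and no cluster shared with another gene, so the members were 2 of the 33616 genes tested. RNA was measured on 8 single-colour human Affymetrix arrays. They cover 4 groups of 2 arrays each from the B-cell lymphoma cell lines HBL-1 and BJAB: HBL-1 with APRIL, HBL-1 with EDA, BJAB with APRIL and BJAB with EDA. APRIL was a recombinant purified protein at 1 µg/ml and EDA, given as the control ligand, was at 1 µg/ml, each for 6 h. Both are tumour necrosis factor family ligands. Untreated cells are not analysed here, so either ligand could stand behind a contrast of the treatments. Each line stands for a single tumour, and no T cells are named in the cultures. The series title concerns APRIL, its receptor BCMA and lowered immunogenicity of lymphoma cells, and PD-1 ligands are among the molecules through which a B cell can restrain a T cell.

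PD-L1 and PD-L2 are membrane proteins of the B7 family. When they bind PD-1 on an activated T cell, the phosphatases recruited to PD-1 dampen signalling from the T-cell receptor and from CD28. Interferon-gamma, acting through JAK1, JAK2 and the transcription factor IRF1, is the best-known inducer of CD274, and interleukin-4, acting through STAT6, is a known inducer of PDCD1LG2. The genes lie side by side on the short arm of chromosome 9, close to JAK2, in a segment that is gained or rearranged in some lymphomas, among them primary mediastinal B-cell lymphoma. In the reference gene table for GRCh38.p14, CD274 spans chr9:5450542-5470554 and PDCD1LG2 spans chr9:5510531-5571282.

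The stretch in front of CD274 is shown because the interferon and STAT genes measured beside it act through sites of this kind. It holds the 250 bases before the RefSeq transcript start on the plus strand of GRCh38.p14, chr9:5450292-5450541, and capitals mark matches to the interferon-stimulated response element core.
CD274 promoter: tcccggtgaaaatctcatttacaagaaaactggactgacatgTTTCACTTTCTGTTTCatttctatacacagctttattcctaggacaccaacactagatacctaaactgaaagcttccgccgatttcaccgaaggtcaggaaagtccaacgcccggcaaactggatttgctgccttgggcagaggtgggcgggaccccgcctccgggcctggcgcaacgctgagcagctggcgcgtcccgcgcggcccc
The core was searched as TTTCNNTTTC on both strands. It matched at 2 overlapping places, from -208 to -199 and from -202 to -193, counted with -1 as the last base before the start. Of 27305 promoters in the RefSeq table, 3.07% held a match in the same window. The interferon-gamma activated site, searched as TTCNNNGAA (the same on either strand), matched once, from -125 to -117, and 6.78% of the promoters held one. The AP-1 site TGANTCA and the hypoxia response core ACGTG, searched on both strands, had 0 matches there, against 6.6% and 18.7% of all promoters. Neither interferon-type motif was found in the same window of any of 8 other B7 family genes. These matches describe letters in a reference sequence and were not tested as binding sites. PDCD1LG2 is named only.

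The arrays were alike within a line. The correlation over all genes was 0.989 to 0.993 between replicates and 0.942 to 0.946 between lines, and the median gene lay between 5.58 and 5.74 on the log2 scale. The 23 background probe sets had medians from 3.57 to 3.77, with the highest on HBL-1 APRIL replicate 2 and at most 3.65 on the other 7 arrays. Nothing in the labels tells whether replicate arrays were separate cultures, and p-values therefore measure only the spread between these arrays, which may be technical. Measured B-cell markers were abundant in both lines, with mean levels of 6 markers of 13.89 to 14.23 on HBL-1 arrays and 13.59 to 13.62 on BJAB arrays. In a bulk RNA sample, fewer cells with a transcript and less of it per cell cannot be told apart.

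CD274 was clearly expressed in HBL-1 and much lower in BJAB, and its means under APRIL and EDA lay 0.053 apart in HBL-1 and 0.15 apart in BJAB. With APRIL, the log2 signal was 9.53 and 9.67 on the HBL-1 arrays and 6.80 and 5.87 on the BJAB arrays. With EDA, it was 9.42 and 9.68 on the HBL-1 arrays and 6.63 and 5.73 on the BJAB arrays. All 4 HBL-1 arrays were high and all 4 BJAB arrays were low, with a wide gap between the lowest HBL-1 value, 9.42, and the highest BJAB value, 6.80. PDCD1LG2 was low everywhere. With APRIL, its signal was 5.70 and 4.98 on the HBL-1 arrays and 4.87 and 4.12 on the BJAB arrays. With EDA, it was 5.08 and 4.61 on the HBL-1 arrays and 4.76 and 4.74 on the BJAB arrays. The ranges of the lines overlapped, and on 7 of the 8 arrays PDCD1LG2 lay below the median gene, where probe sets of different genes also differ in how strongly they bind.

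**Figure D1:**
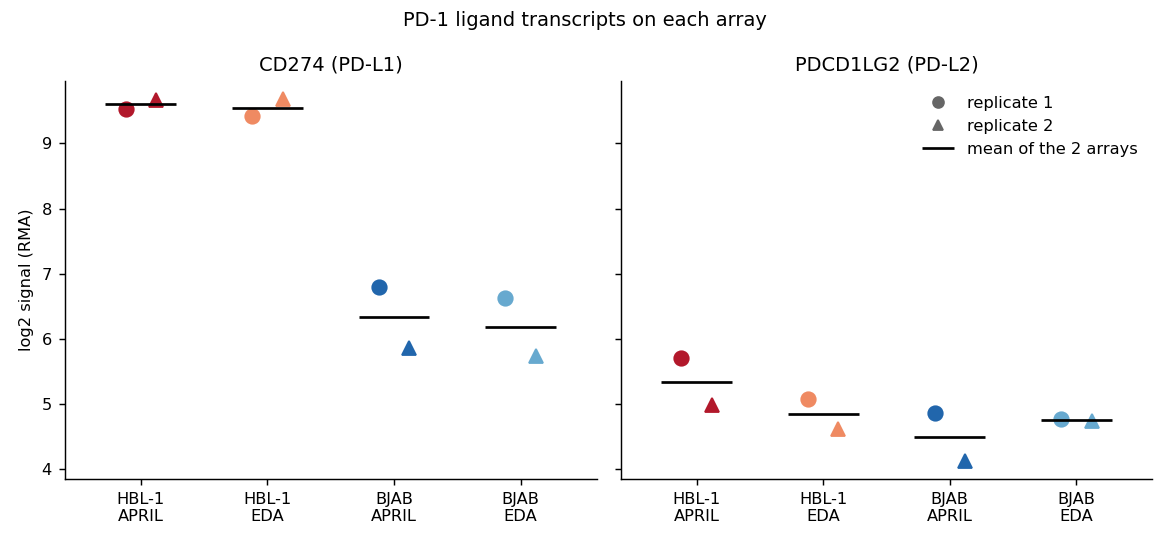
Log2 RMA signal of CD274 (left) and PDCD1LG2 (right) on each of the 8 arrays, with circles for replicate 1, triangles for replicate 2 and a black line for the mean of the 2 arrays of a group. CD274 lies between 9.42 and 9.68 on every HBL-1 array and between 5.73 and 6.80 on every BJAB array, while PDCD1LG2 stays between 4.12 and 5.70 in both lines.

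The comparison of the lines asks how far their PD-1 ligand levels differ under the same ligand. CD274 averaged 9.57 ± 0.12 in HBL-1 and 6.26 ± 0.54 in BJAB (SD, n = 4 arrays each, both ligands together). The log2 difference of HBL-1 minus BJAB was 3.32 (SE 0.25, 95% confidence interval 2.76 to 3.88, limma adjusted p = 3.8e-06), a 9.97-fold higher signal in HBL-1. It exceeded the difference of 99.1% of all genes. The lines differed widely in general: of all genes, 24.2% had an adjusted p under 0.05, with 10.3% higher and 13.9% lower in HBL-1, and 11.5% had every HBL-1 array above every BJAB array. An exact two-sided permutation test of the 8 arrays gave p = 0.0286 for CD274, the smallest value that 70 arrangements allow.

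CD274 also passed under each ligand taken separately, within the fit of all 8 arrays. Fitted on the arrays of that ligand alone, its limma adjusted p was 0.000147 with APRIL and 0.000569 with EDA. With APRIL, its difference was 3.27 (SE 0.35, 95% confidence interval 2.48 to 4.06, limma adjusted p = 0.000105), in a comparison where 7.92% of all genes passed as higher in HBL-1. With EDA, it was 3.37 (SE 0.35, 95% confidence interval 2.58 to 4.15, limma adjusted p = 8.4e-05), where 6.22% of all genes passed as higher. The intervals of these differences overlapped almost wholly.

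PDCD1LG2 did not pass between the lines, except with APRIL under a replicate block. It averaged 5.09 ± 0.45 in HBL-1 and 4.62 ± 0.34 in BJAB (SD, n = 4 arrays each), a difference of 0.47 (SE 0.23, 95% confidence interval -0.032 to 0.97, limma adjusted p = 0.18), and the exact permutation p was 0.171. With APRIL the difference was 0.85 (95% confidence interval 0.14 to 1.56, limma adjusted p = 0.11), and both HBL-1 arrays lay above both BJAB arrays, as they did for 27.9% of all genes in that comparison. With the replicate number as a block the adjusted p with APRIL was 0.045, and leaving out 1 array gave 0.47 (without BJAB APRIL replicate 2) to 1.22 (without BJAB APRIL replicate 1). With EDA it was 0.096 (95% confidence interval -0.61 to 0.81, limma adjusted p = 0.91). The interval over both ligands excludes a signal difference as large as that of CD274.

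The line gaps of the 2 genes were then compared through their difference within each array. CD274 minus PDCD1LG2 was 3.84 and 4.69 on the HBL-1 arrays with APRIL, 4.34 and 5.07 on those with EDA, 1.93 and 1.74 on the BJAB arrays with APRIL and 1.87 and 1.00 on those with EDA. Every HBL-1 array exceeded every BJAB array. The mean was 4.48 ± 0.52 in HBL-1 and 1.64 ± 0.43 in BJAB (SD, n = 4 arrays each), and the difference of 2.85 had an exact two-sided permutation p of 0.0286, again the smallest possible. The 3 exact tests of this kind were not adjusted for each other. PDCD1LG2, at 4.12 to 5.70, lay above the background medians of 3.57 to 3.77 but below the median gene on 7 of the 8 arrays. An RNA difference may be compressed at low signals, also for CD274 in BJAB (5.73 to 6.80), so this gap is one of array signals. The value of either gene's signal against the other's is not a ratio of RNA amounts.

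The comparison of the ligands asks whether APRIL, measured against EDA, was accompanied by another level of PD-1 ligand RNA after 6 h. Neither gene passed in either line, and of all genes 0.00297% passed in HBL-1 and 0% in BJAB. In HBL-1, CD274 averaged 9.60 with APRIL and 9.55 with EDA, a difference of 0.053 (SE 0.35, 95% confidence interval -0.74 to 0.84, limma adjusted p = 0.98). The median gene differed by 0.10 in the same comparison, and the sign of the CD274 difference turned when arrays were scaled in other ways (-0.014 with equal array medians, -0.18 after quantile normalization and -0.082 after cyclic loess). In BJAB, CD274 averaged 6.33 with APRIL and 6.18 with EDA, a difference of 0.15 (SE 0.35, 95% confidence interval -0.64 to 0.94, limma adjusted p = 1), where the median gene differed by 0.0016. Within each of these comparisons the APRIL and EDA arrays of CD274 overlapped. The SE is the same in both lines because the fit shares 1 estimate of spread over all groups. With the arrays of each line fitted alone, it was 0.25 in HBL-1 and 0.40 in BJAB.

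Over both lines the CD274 difference of APRIL minus EDA was 0.10 (SE 0.25, limma adjusted p = 0.95), and its 95% confidence interval ran from a 0.728-fold to a 1.58-fold signal. Its responses in the lines differed by -0.095, HBL-1 minus BJAB (SE 0.50, 95% confidence interval -1.21 to 1.02, limma adjusted p = 0.99). Changes inside these intervals are not excluded by the 8 arrays. The intervals are not limits of detection, since larger changes may also miss the adjusted threshold. Of all genes, 0% passed with limma in these comparisons too. At an unadjusted limma p under 0.05 there were 2967 genes in HBL-1, 1365 in BJAB, 2323 over both lines and 1894 in the comparison of responses. With 33616 genes tested, many reach this level without any effect, so these counts do not by themselves show a response.

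PDCD1LG2 had a difference of APRIL minus EDA of 0.49 in HBL-1, with means of 5.34 and 4.85 (SE 0.32, 95% confidence interval -0.22 to 1.20, limma adjusted p = 0.68), and leaving out 1 array gave 0.14 (without HBL-1 APRIL replicate 1) to 0.85 (without HBL-1 APRIL replicate 2). In BJAB the means were 4.49 with APRIL and 4.75 with EDA, a difference of -0.26 (95% confidence interval -0.97 to 0.45, limma adjusted p = 1). The signs were opposite, but the difference between the responses, 0.75, did not pass (SE 0.45, 95% confidence interval -0.25 to 1.75, limma adjusted p = 0.92), and ran from 0.38 to 1.12 with 1 array left out. Over both lines the difference was 0.12 (limma adjusted p = 0.94). The array of HBL-1 APRIL replicate 1 was the highest of all 8 for this gene at 5.70, and the array of BJAB APRIL replicate 2 was the lowest at 4.12.

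**Figure D2:**
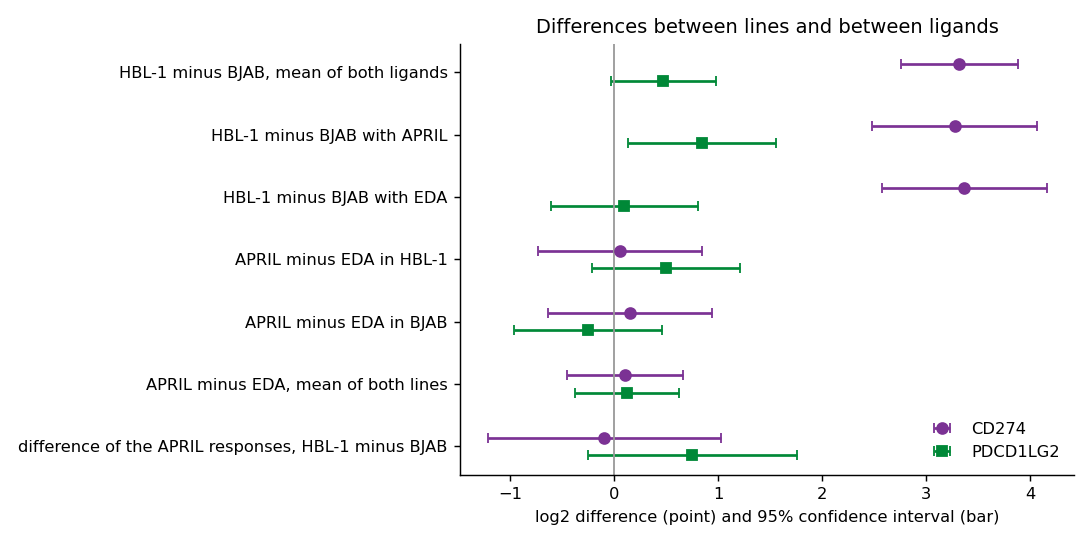
Log2 differences (points) with 95% confidence intervals (bars) of CD274 and PDCD1LG2 in 7 comparisons between lines and between ligands. The CD274 intervals of the 3 line comparisons start at 2.48 or higher, and the intervals of both genes include 0 in all 4 ligand comparisons.

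The replicates of CD274 spread unequally. In HBL-1 the SD between the 2 arrays was 0.095 with APRIL and 0.19 with EDA, where the median SD of all genes was 0.22 and 0.17. In BJAB it was 0.66 with APRIL and 0.64 with EDA, and 97.2% of genes had a smaller SD in either group. Both replicate 1 arrays of BJAB were higher than both replicate 2 arrays, by 0.93 with APRIL and 0.90 with EDA. Taken by replicate number, the APRIL minus EDA value of CD274 in BJAB was 0.16 and 0.13, and in HBL-1 it was 0.12 and -0.011. A split of at least this size and direction in both BJAB groups was seen for 41 of 33616 genes, and 23 genes had one of at least this size in the opposite direction. The labels do not say what the replicate numbers share, and the source of the split was not tested.

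Most neighbours of CD274 on the short arm of chromosome 9 did not pass as higher in HBL-1. Among 34 neighbouring genes, HBL-1 was higher for 3 and lower for 9 (limma adjusted p under 0.05, mean of both ligands), where 10.3% and 13.9% of all genes were. Their median difference was -0.18, against 0.015 for all genes. The 3 higher ones were INSL6, a relaxin-like gene whose annotated span overlaps that of JAK2 (2.76, 95% confidence interval 2.31 to 3.21, limma adjusted p = 3.1e-06), UHRF2, an E3 ubiquitin ligase gene (1.22), and SMARCA2, which encodes a chromatin remodelling ATPase (1.03). The interval of INSL6 overlapped that of CD274. UHRF2 and SMARCA2 were named after their values were seen, as were RLN1 and INSL4.

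The genes closest to the pair of ligands moved both ways or did not pass. On the side of CD274, PLGRKT, a plasminogen receptor gene next to it, had a difference of -0.56 (limma adjusted p = 0.043). The relaxin genes RLN1 and RLN2 come next, at -1.02 and -2.63, and as close relatives they may share probe signal. INSL4 (0.038) and INSL6 (2.76) follow, and then JAK2, the kinase of the interferon-gamma receptor, which averaged 9.58 in HBL-1 and 9.51 in BJAB (HBL-1 minus BJAB 0.066, SE 0.18, 95% confidence interval -0.34 to 0.47). On the side of PDCD1LG2, RIC1, which serves transport at the Golgi, had a difference of 0.20 (adjusted p = 0.55), and ERMP1, a peptidase gene of the endoplasmic reticulum, was lower by -0.81 (adjusted p = 0.032). Beyond JAK2, AK3, a mitochondrial adenylate kinase, was lower by -1.63 and KANK1, a cytoskeletal regulator, by -4.77. The split of the calls depended on scaling, with 5 higher and 6 lower after quantile normalization and 5 higher and 7 lower after cyclic loess. Copy number was not measured here.

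**Figure D3:**
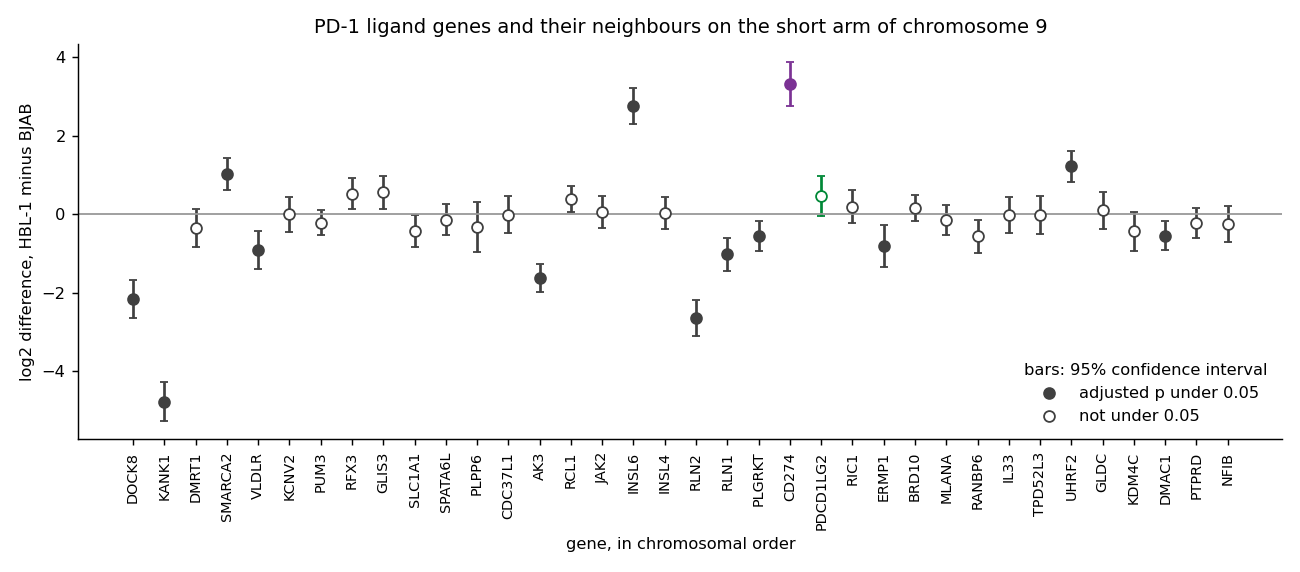
Log2 difference, HBL-1 minus BJAB over both ligands, of CD274 (purple), PDCD1LG2 (green) and 34 neighbouring genes in chromosomal order, with 95% confidence intervals and filled points where the limma adjusted p was under 0.05. CD274 at 3.32 has the highest value on the plot, followed by INSL6 at 2.76, and JAK2, RIC1 and PDCD1LG2 are open points between 0.066 and 0.47.

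The other ligands of the B7 family ran opposite to CD274 where they passed. Of 8 measured members, 0 were higher and 5 were lower in HBL-1 with limma, where 10.3% and 13.9% of all genes were. Their median difference was -0.88. CD80, which binds CD28 and CTLA-4 and also pairs with PD-L1 on the same membrane, averaged 6.71 in HBL-1 and 10.98 in BJAB (HBL-1 minus BJAB -4.27, SE 0.41, limma adjusted p = 2.5e-05). On single arrays CD80 was at 6.84 and 7.66 in HBL-1 with APRIL, 7.31 and 5.04 in HBL-1 with EDA, 11.11 and 10.58 in BJAB with APRIL and 11.08 and 11.13 in BJAB with EDA. CD86, the other CD28 ligand, was lower in HBL-1 by -7.88, the checkpoint molecule VSIR by -2.08 and the ICOS ligand ICOSLG by -0.93. RGMB, another binding partner of PD-L2, averaged 3.58 in HBL-1 and 3.44 in BJAB, near the background probe sets (difference 0.15, adjusted p = 0.70). The receptor gene PDCD1 is not analysed here.

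Genes of the inducing pathways did not move as a block. Among 12 measured interferon, JAK and STAT genes, HBL-1 was higher for 3 and lower for 3 (median difference 0.070; 10.3% and 13.9% of all genes), and the counts were 5 and 3 after quantile normalization or cyclic loess. STAT3, which carries signals of interleukin-10 and interleukin-6, was higher by 1.76 (SE 0.14, limma adjusted p = 6.1e-06). IFNGR1, the ligand-binding chain of the interferon-gamma receptor, was lower by -2.47, STAT5B by -2.21 and STAT5A by -1.63. A second cluster of STAT5B had a difference of -0.34. IRF1, a factor known to bind response elements of this type, averaged 6.28 in HBL-1 and 6.33 in BJAB. It did not pass (HBL-1 minus BJAB -0.055, limma adjusted p = 0.92), and its binding to the stretch printed above was not tested. IRF1 was named after its value was seen.

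Genes of the route known for PDCD1LG2 were lower in HBL-1 where they passed. Of 5 genes of the interleukin-4 and STAT6 pathway, 0 were higher and 3 were lower with limma, against 10.3% and 13.9% of all genes. IL4R, the receptor chain for interleukin-4, was lower by -1.90 (adjusted p = 3.0e-05), the common gamma chain IL2RG by -1.33 and the kinase JAK3 by -0.55. A second cluster of IL2RG had a difference of 0.57. STAT6 itself averaged 10.09 in HBL-1 and 10.29 in BJAB (HBL-1 minus BJAB -0.20, adjusted p = 0.50). IL13RA1, which pairs with IL4R, averaged 4.06 in HBL-1 and 4.04 in BJAB. Of 7 brakes of JAK and STAT signalling, 1 was higher and 2 were lower, beside the same shares of all genes. The phosphatase PTPN6, known as SHP-1, was lower by -4.39 and PTPN2 by -0.95, and PTPN1, which acts on JAK2, was higher by 1.69. A second cluster of PTPN2 had a difference of -0.29.

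Other transcriptional regulators of CD274, among them the histone methyltransferase EZH2, were mostly higher in HBL-1. The counts do not separate activators from repressors. Of 12 measured, 8 were higher and 2 lower, against 10.3% and 13.9% of all genes, and their median difference was 0.94. BATF, an AP-1 family member and a partner of IRF4 in activated lymphocytes, averaged 12.62 in HBL-1 and 7.26 in BJAB (HBL-1 minus BJAB 5.36, SE 0.19, limma adjusted p = 1.4e-08). BATF3 was higher by 1.90 and HIF1A, the hypoxia factor, by 1.20, while MYC was lower by -1.66. The list was made with earlier results of these data known, in which BATF was already seen to differ, so it is no independent evidence of direction.

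Genes that handle the PD-L1 protein showed no common direction. Of 23 genes of its stability, trafficking and shedding, 5 were higher and 6 lower in HBL-1, where 10.3% and 13.9% of all genes were. Their median difference was 0.021. CMTM4, a relative of the PD-L1 stabiliser CMTM6, was lower by -1.50, the deubiquitinase USP7 by -2.34 and the palmitoyltransferase ZDHHC9 by -1.41. TRAPPC4, a trafficking gene, was higher by 1.92 on a cluster without a chromosome in its name, and its 15 clusters ran from 0.050 to 1.92. Protein was not measured. None of the 125 measured genes of all lists passed between APRIL and EDA with limma in HBL-1, in BJAB or over both lines. Of all genes, 0.00297%, 0% and 0% passed there. An unadjusted limma p under 0.05 was seen for 10, 3 and 5 of the 125, beside 2967, 1365 and 2323 of all 33616 genes.

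**Figure D4:**
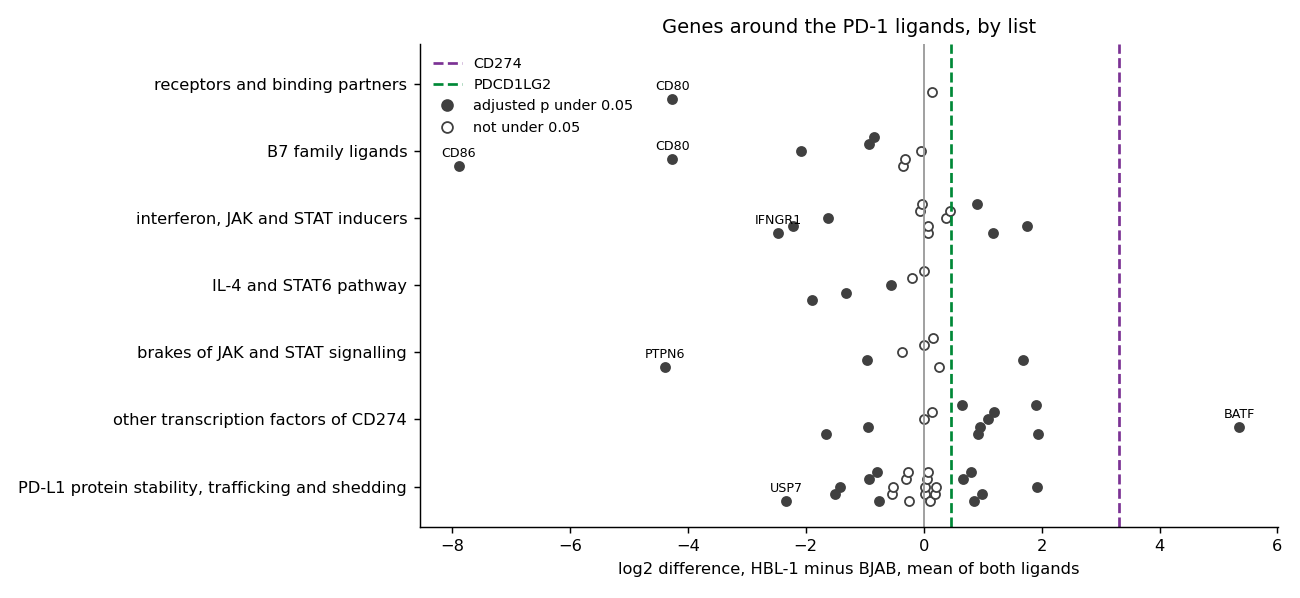
Log2 difference, HBL-1 minus BJAB over both ligands, of each measured gene in 7 lists around the PD-1 ligands, filled where the limma adjusted p was under 0.05, with dashed lines for CD274 (3.32) and PDCD1LG2 (0.47). BATF at 5.36 is the single listed gene to the right of CD274, and CD86 at -7.88 lies farthest to the left.

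The genes with the pattern closest to CD274 were sought among 17337 other protein-coding genes, by the root mean square difference over the 8 arrays of log2 values centred on each gene's own mean. They were KIAA1217 (0.213), BIVM-ERCC5 (0.231), RBM7 (0.241), ENPP5 (0.243) and EPSTI1 (0.258), where the median gene was at 1.70. EPSTI1 is an interferon-induced gene, and RBM7 serves the nuclear RNA exosome. EPSTI1 averaged 11.43 in HBL-1 and 7.97 in BJAB, a log2 difference of 3.46. Of these 5 promoters, EPSTI1 alone held the response element core, RBM7 and EPSTI1 held the interferon-gamma activated site, and 0 held the AP-1 site. The hypoxia response core, with 0 matches for CD274, was found in RBM7, ENPP5 and EPSTI1. The 5 genes were chosen by their likeness to CD274, so their line differences follow from that choice. A shared route was not tested. For PDCD1LG2 the closest were CHRFAM7A (0.153), SLC6A16 (0.157), SYTL3 (0.180), CTSB (0.181) and PEX16 (0.183), against a median of 0.515.

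Markers of cells that can carry PD-1 ligands were read as well. Of 10 macrophage and dendritic-cell markers, 2 were higher and 0 lower in HBL-1 with limma, against 10.3% and 13.9% of all genes, and their summed linear signal was 4536 to 8778 on HBL-1 arrays and 917 to 1233 on BJAB arrays. CD1C made most of that sum on HBL-1 arrays, and without it the range was 634 to 744 on HBL-1 arrays and 457 to 583 on BJAB arrays. The 2 higher ones were CD1C (difference 3.63), which some B cells also carry, and the mannose receptor MRC1 (2.45). The mean levels in HBL-1 and in BJAB were 5.18 and 5.14 for CD14, 5.39 and 5.18 for LYZ, and 5.28 and 5.43 for CSF1R, below the median gene, but 7.09 and 7.42 for ITGAM, 6.26 and 6.45 for ITGAX, and 5.91 and 5.59 for CD163. Of 8 T-cell and NK-cell markers, 0 were higher and 3 lower in HBL-1, namely CD3G (-6.30), CD3D (-1.73) and CD3E (-1.09), and their summed signal was 348 to 471 on HBL-1 arrays and 2867 to 3798 on BJAB arrays. Without CD3G it was 310 to 430.2 on HBL-1 arrays and 430.4 to 613 on BJAB arrays. Of the 6 B-cell markers, 3 were higher and 1 lower, with the adaptor BLNK at 3.71, the kinase BLK at 1.20, CD79A at 0.46 and MS4A1, which encodes CD20, at -2.62. Second clusters of BLNK and BLK had differences of 1.60 and 0.39. The part of such cells in the CD274 level was not tested.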

How the data were processed

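RNA of 8 samples was hybridised to 1 single-colour array each. The authors deposited log2 signals made by RMA with the Affymetrix Expression Console software, as the submitters' processing notes name them (per the labels). Versions and the annotation release are not given in the sources used here. The log2 scale was read from the values. Of 138745 rows, 36176 carry 1 gene symbol, 1119 several and 101450 none. For each of 33616 genes the single-symbol row with the highest mean over 8 arrays was kept, with no filter on dim genes. limma 3.58.1 (R 4.3.3) was fitted with 1 mean per group, 4 residual and 6.02 prior degrees of freedom. Two-sided p-values were adjusted by Benjamini-Hochberg over all genes, with a threshold of 0.05. Exact two-sided permutation tests over 8 arrays were used for single values. Alternatives covered the choice of row, a filter on the dimmest 30% of genes, the scaling between arrays, limma settings, the replicate number as a block, and each array dropped in turn. The procedure was tested on simulated data. Arrays give no depth, and their number limits the precision (median SE 0.25 within 1 line or ligand).

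The members and the 11 lists (125 of 132 genes measured) were chosen with earlier results of these data known. Named genes were, for each list, the 4 passing members of smallest p between the lines, or 2 where none passed, all measured binding partners, 4 genes near the pair of ligands, and 5 most alike genes per member. IRF1, STAT6, IL13RA1, UHRF2, SMARCA2, RLN1, INSL4 and the markers CD14, LYZ, CSF1R, ITGAM, ITGAX and CD163 were named after their values were seen. Promoters are from RefSeq, GRCh38.p14. Figures were drawn with matplotlib 3.10.9.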

Additional observations from a re-analysis of the deposited data

How the results depend on the processing

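CD274 kept its direction and its call between the lines in all alternatives run, at 3.08 to 3.55 over both ligands, 2.80 to 3.74 with APRIL and 2.91 to 3.82 with EDA. PDCD1LG2 over both ligands stayed uncalled at 0.28 to 0.66. With the replicate number as a block it passed with APRIL (0.85, limma adjusted p = 0.045, against 0.045 to 0.52 over all alternatives). Deviations of same-numbered arrays correlated at -0.019 to 0.059, so the numbers are not taken as pairs, and the block changed no other call of either gene. For PDCD1LG2 itself, replicate 1 lay above replicate 2 in every group. The gap was 0.72 in HBL-1 with APRIL, 0.47 in HBL-1 with EDA, 0.75 in BJAB with APRIL and 0.028 in BJAB with EDA. The sign of CD274 between APRIL and EDA was not fixed: in HBL-1 it was -0.014 with equal array medians, -0.18 with another quantile normalization and -0.082 with cyclic loess (added after the data were seen), and over both lines it was -0.021 after quantile normalization. Leaving out each array in turn gave -0.078 to 0.18 in HBL-1, -0.32 to 0.62 in BJAB, -0.13 to 0.33 over both lines and -0.56 to 0.37 for the difference of responses. For PDCD1LG2 it gave -0.63 to 0.12 for APRIL minus EDA in BJAB, -0.067 to 0.31 over both lines and -0.14 to 0.33 for the lines with EDA. The cause was not tested. The count of genes between the lines with EDA was 5564, and 3686 to 5871 with an array left out, lowest without BJAB EDA replicate 1. The 1 gene called in HBL-1 became 0 when every row was tested, with array weights, with its own arrays alone, with the replicate block and with any array left out, and the 0 genes over both lines became 1 with an intensity trend and robust shrinkage. Interferon, JAK and STAT genes higher in HBL-1 were 3, and 5 after quantile normalization or cyclic loess. Neighbours higher in HBL-1 were 3, and 5 under those settings or the replicate block. B-cell markers lower were 1, and 2 with the trend or without HBL-1 APRIL replicate 2. Macrophage and dendritic-cell markers lower were 0, and 1 with the rows of a gene averaged. PDCD1LG2 signals were low, at 4.12 to 5.70 against background medians of 3.57 to 3.77, which limits what can be seen.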
